A study of Mus musculus with 378 samples.

Results

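The libraries compared here are islet RNA samples that stood at opposite ends of an interferon score. The score was computed from the deposited variance-stabilised values. Each of 6 interferon-induced genes, Isg15, Ifit1, Ifit3, Oasl2, Rtp4 and Usp18, was converted to a z value across libraries, separately for the title letters F and M, and the 6 z values were averaged. The 95 libraries with the highest scores formed the high-score group and the 95 with the lowest the low-score group, each 25.1% of all libraries in the series. Between them lay a lower and an upper middle group of 94 libraries each. The animals were Diversity Outbred mice, a stock bred so that every mouse has a different mosaic of inbred founder genomes. Each library has its own mouse number, and the titles give 190 libraries the letter M and the others F, read here as male and female. All mice received a diet high in fat and sugar (45% fat), so both groups share this exposure, and the labels name no infection and no interferon treatment. High and low therefore describe measured RNA and not an assigned group.

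Type I interferons bind a receptor made of Ifnar1 and Ifnar2, whose kinases Jak1 and Tyk2 phosphorylate STAT proteins. With Irf9 these form a factor that binds a short DNA element in front of interferon-stimulated genes, whose products block viral replication, sense nucleic acids, present antigen and attract leukocytes. In pancreatic islets, small endocrine organs made mostly of insulin-producing beta cells, this programme is known from viral infection and from autoimmune diabetes.

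To show the DNA in front of the genes that differed most, RefSeq promoters (GRCm38.p6, 250 bases before to 50 after each gene's start) were searched on both strands for the letters GAAANNGAAA, the core of the interferon-stimulated response element. Among the 15 genes with the largest positive differences described further on, the first 8 with an entry in the promoter table were looked up, and 7 held the element before the start. Their stretches are shown 5′ to 3′ on the strand of the gene, with the element, or its reverse complement TTTCNNTTTC, in capitals.
Ifit3b, chr19:34607764-34607842, plus strand: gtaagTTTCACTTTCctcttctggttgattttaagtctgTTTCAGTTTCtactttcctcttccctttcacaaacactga
Ifit1bl1, chr19:34599428-34599480, minus strand: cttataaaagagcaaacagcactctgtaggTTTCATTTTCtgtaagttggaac
Cxcl10, chr5:92349063-92349132, minus strand: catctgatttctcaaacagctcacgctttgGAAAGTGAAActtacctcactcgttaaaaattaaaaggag
Apol9a, chr15:77411094-77411163, minus strand: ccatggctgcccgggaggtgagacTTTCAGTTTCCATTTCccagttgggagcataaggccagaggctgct
Rsad2, chr12:26456533-26456602, minus strand: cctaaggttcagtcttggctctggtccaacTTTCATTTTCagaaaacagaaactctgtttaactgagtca
Tgtp2, chr11:49064243-49064312, minus strand: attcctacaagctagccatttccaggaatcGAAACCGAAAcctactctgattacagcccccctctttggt
Oas3, chr5:120777695-120777764, minus strand: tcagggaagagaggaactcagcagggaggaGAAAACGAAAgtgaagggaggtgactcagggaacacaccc
The element nearest the start ended 13 bases before it in Ifit1bl1, and that of Cxcl10 lay farthest from it. Apol9a carries 2 overlapping matches and Ifit3b 2 separate ones. The window of Ifit2 held no match, which says only that these letters are not in it.

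The element was present in 3.44% of all 32851 promoter windows and in 3.67% of the 11947 tested genes with a RefSeq promoter. Of the matched genes that were at least 2-fold higher in the high-score group, 56 (35.7%) held it. The element was held by 19 (9%) of those 1.5-fold to 2-fold higher and by 76 (5.72%) of those higher by less than 1.5-fold. Among matched genes called lower the share was 2.47%, and among those not called it was 2.89%. The share was 60.9% for the 23 matched antiviral effectors and 90% for the 10 matched interferon-inducible GTPases, but 2 of 12 for the JAK-STAT and IRF factors. A match of letters is a description of the sequence and not a measured binding site.

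The score varied continuously, with no gap at either threshold. Scores ran from -2.91 to 3.14 with a median of 0.015. The last member of the high-score group scored 0.6005 and the next library below it 0.5944. At the other end, the first member of the low-score group scored -0.6645 and the next library above it -0.6553. The median score was 1.03 in the high-score and -1.01 in the low-score group. The high-score group held 48 F and 47 M libraries, and the low-score group 43 and 52. Each of 4 bands of 100 consecutive mouse numbers, starting at 21, gave 23 to 25 libraries to the high-score and 21 to 27 to the low-score group. Within a letter the bands were less even. F libraries gave 13 to the high-score and 6 to the low-score group in band 1, and 10 and 17 in band 2. M libraries gave 11 and 15 in band 1, and 13 and 9 in band 2. Letter and band entered the fit below as separate terms. The labels do not say whether such a band marks anything. Total counts spanned 20.1 M to 43.5 M (median 35.5 M) in the high-score and 19.7 M to 68.8 M (median 33.9 M) in the low-score group, so the medians were close and the deepest library was in the low-score group. When the score was split into Isg15, Ifit1 and Ifit3 on one side and Oasl2, Rtp4 and Usp18 on the other, the 2 partial scores shared 81 of 95 libraries at each end.

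**Figure D1:**
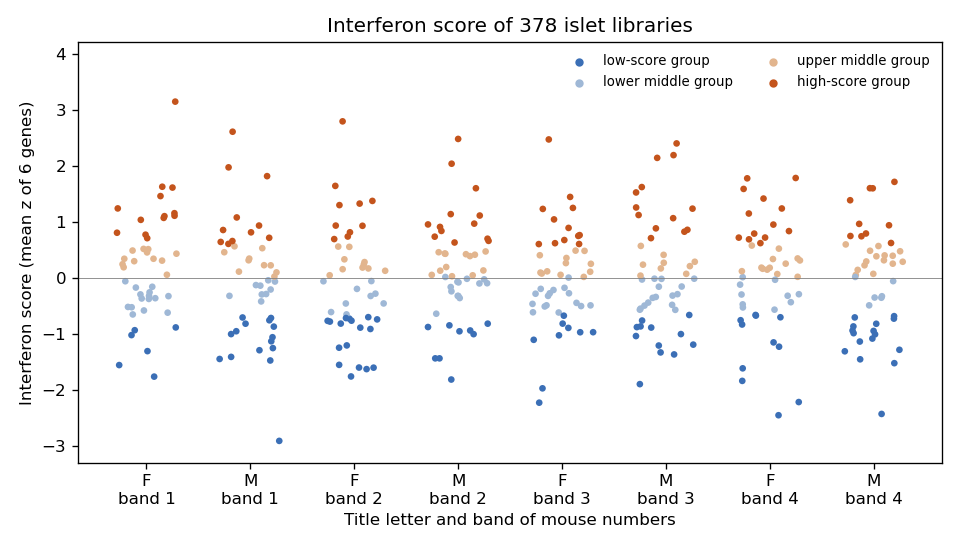
Interferon score (mean z of 6 genes, vertical axis) of each library in the series, by title letter and number band, coloured by score group. High and low libraries occur in every band and under both letters, and the scores form a continuum from -2.91 to 3.14.

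The 6 score genes show what the ranking selected, and their levels are given as a description without a test. Isg15, a ubiquitin-like protein that is attached to other proteins, had 1.84, 11.6 and 19.6 CPM (counts scaled to a common library total) as the lowest, median and highest value in the low-score group, and 21.3, 47.3 and 204.5 CPM in the high-score group. The groups did not overlap in Isg15. Ifit1, which binds viral RNA ends, had a median of 117.1 CPM in the low-score and 541.3 CPM in the high-score group. Ifit3, its partner, had medians of 27.8 and 182.4 CPM. Usp18, the protease that removes Isg15 and restrains the receptor, had medians of 44.1 and 134.1 CPM. Oasl2 had medians of 57.1 and 187.7 CPM, and the receptor transporter Rtp4 29.4 and 80.2 CPM. These values chose the libraries, and other genes of the same response had to follow to the extent that they vary together with these 6.

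Across all other genes, the high-score group differed from the low-score group by large increases in a small group of genes and by small changes in many. Of 17874 genes tested with edgeR, 2377 were higher (13.3%) and 2670 lower (14.9%) in the high-score group at an adjusted p under 0.05. The increases reached much further than the decreases: 584 genes (3.27%) were higher and 25 (0.14%) lower by at least 1.5-fold, and 1.43% were higher and 4 genes lower by at least 2-fold. The median log2 difference of all genes was -0.014, a value that the scaling of the libraries holds near 0. The title letter and the number band were covariates of this fit, and when the 4 bands were fitted separately the sign was shared by all for 2066 of the higher and 2365 of the lower genes. In the 14 lists of the interferon and inflammatory pathway, 92.2% of the tested genes were called higher, 1 gene was lower and 15 were not called.

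**Figure D2:**
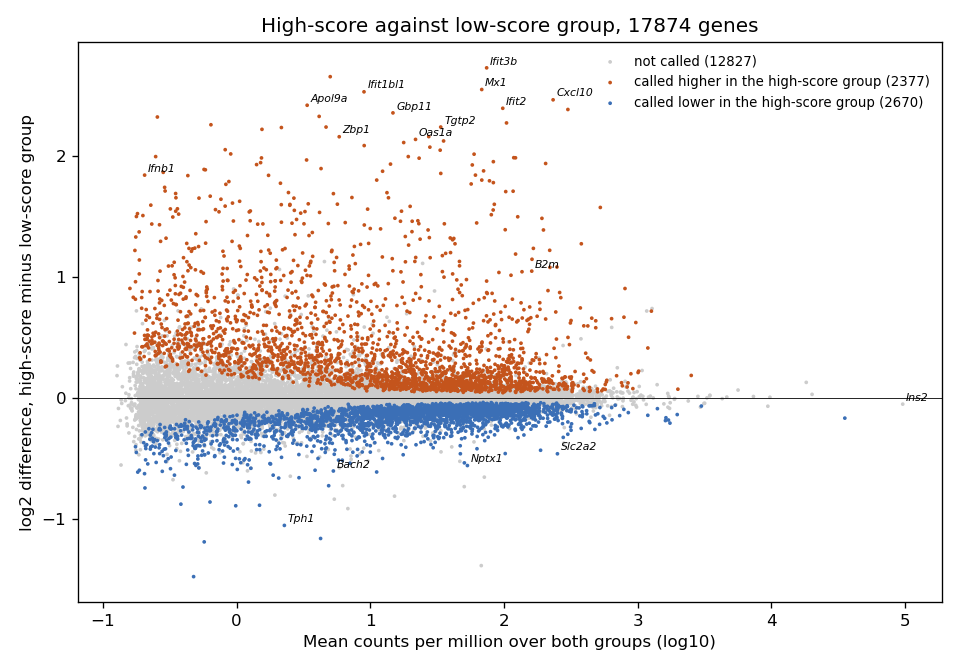
Log2 difference between the high-score and the low-score group (vertical axis) against mean CPM on a log10 axis for 17874 genes, the 6 score genes left out. The 2377 higher genes (orange) reach far above the 2670 lower genes (blue), and the labelled genes with large increases include Ifit3b, Mx1 and Cxcl10.

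The largest increases were in genes that block viral replication, in interferon-inducible GTPases, in the chemokine gene Cxcl10 and in the nucleic acid sensor gene Zbp1. The 15 genes with the largest differences among those with a mean of at least 2 CPM and the same sign in every band and under both letters had log2 differences from 2.13 to 2.73. Ifit3b, a copy of the RNA-binding Ifit3 gene (chr19:34607970-34613401), had 2.21, 18.4 and 42.7 CPM (lowest, median, highest) in the low-score and 42.4, 101.7 and 572.2 CPM in the high-score group. In 93 of 95 high-score libraries it exceeded the highest low-score library, a 6.61-fold difference (log2 2.73 ± 0.11, SE, adjusted p = 1.15e-59). Ifit3 is a score gene, so reads shared with its copy Ifit3b would tie this difference to the choice of libraries. The size of that share was not tested. Rsad2, which encodes viperin, a producer of a chain-terminating nucleotide (chr12:26442753-26456452), had a lowest value of 15.4 and a median of 91.3 CPM in the low-score group and 145.3, 421.8 and 1934 CPM in the high-score group. Its ranges overlapped in few libraries, with 90 high-score libraries above the highest low-score library, and the log2 difference was 2.38 ± 0.10 (adjusted p = 3.40e-54). Mx1, a dynamin-like GTPase that traps viral nucleocapsids (chr16:97447035-97462907), had 3.11, 17.0 and 58.1 CPM against 22.9, 89.1 and 616.4 CPM, a log2 difference of 2.55 ± 0.12 (adjusted p = 4.87e-47). Its neighbour Mx2 was higher by 2.27 ± 0.17 on the log2 scale, but its groups overlapped widely, and 18 high-score libraries lay above the highest low-score library.

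The other genes of this group were Ifit1bl1, Cxcl10, Apol9a, Ifit2, Gbp11, Tgtp2, Oas3, Apol9b, Oas2, Zbp1 and Oas1a. In 11 of the 15 genes, every high-score library lay above the median of the low-score group. The oligoadenylate synthetases Oas1a, Oas2 and Oas3, which make a short nucleotide signal when they meet double-stranded RNA, had log2 differences of 2.13 ± 0.09, 2.16 ± 0.11 and 2.24 ± 0.11. Ifit2 rose from a median of 30.5 to 135.8 CPM. The groups overlapped widely in Tgtp2, with 0, 9.25 and 65.1 CPM in the low-score and 0.060, 34.9 and 372.4 CPM in the high-score group. For 8 of the 15 genes, Ifit3b, Mx1, Apol9a, Gbp11, Mx2, Tgtp2, Apol9b and Oas1a, under 1% of libraries held an exactly whole count, so their reads were divided with similar genes and the split between copies is uncertain.

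**Figure D3:**
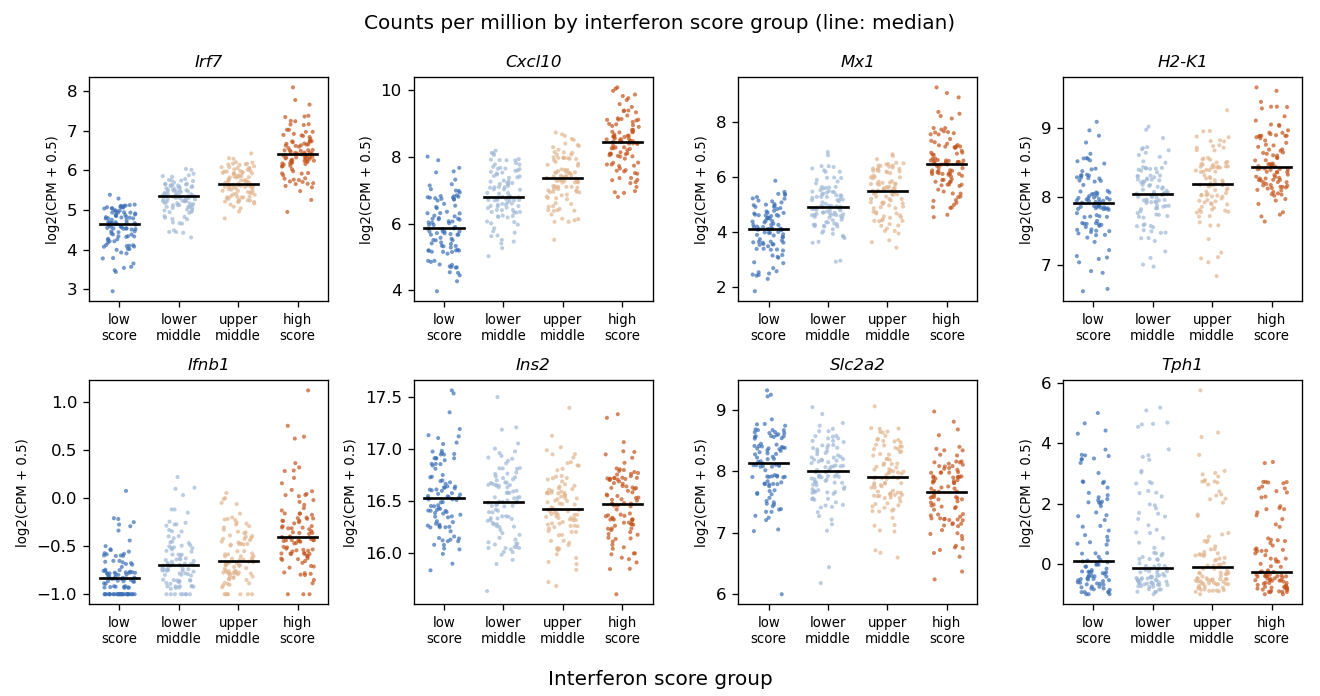
Log2(CPM + 0.5) of 8 genes in each library of the 4 score groups, with the median as a line. The medians of Irf7, Cxcl10, Mx1, H2-K1 and Ifnb1 are higher in each group than in the one before it, while the values of Ins2 and Tph1 overlap almost fully.

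Interferon transcripts themselves were near the limit of detection. Ifnb1, interferon beta (chr4:88522025-88522774), had a median of 2 counts per library in the low-score group, where 26 of 95 libraries had none, and 9 counts in the high-score group, where 3 of 95 had none. In CPM its median over the 4 groups went from 0.063 through 0.119 and 0.136 to 0.254, and the highest library had 1.67 CPM. The difference between the high-score and the low-score group was 1.84 ± 0.19 on the log2 scale (adjusted p = 8.41e-17), with 90 of 95 high-score libraries above the low-score median. Few low-score libraries reached the level that the filter for low counts asks for, so Ifnb1 entered the test through the high-score group. Its p-value is therefore no separate support for the difference. In the deposited values it was 0.34 on their log2 scale. Ifna2 had a median of 1 count in each of these groups and was not tested. Of 20 type I and type III interferon genes listed, these 2 are rows of the table used here, and Ifng, the type II interferon, is not.

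The receptors differed little. Ifnar2, one chain of the type I receptor, was higher by 0.18 ± 0.03 on the log2 scale (adjusted p = 8.46e-08), with 13.5, 18.8 and 29.9 CPM in the low-score and 14.3, 21.7 and 43.7 CPM in the high-score group. Ifngr2, of the type II receptor, was higher by 0.28 ± 0.06 (adjusted p = 7.07e-05). Both sets of values overlapped widely. The partner chains Ifnar1 (0.03 ± 0.04) and Ifngr1 (-0.04 ± 0.05) did not pass the test, nor did Il10rb and Ifnlr1 of the type III receptor.

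Among the signal transducers, Irf7 and the factors of the interferon-activated complex rose most, while the receptor kinases Jak1 and Tyk2 did not pass the test. Of 13 JAK-STAT and IRF genes, 11 were higher and none lower, with a median log2 difference of 0.64 against -0.014 for all genes. Irf7, the amplifier of interferon transcription (chr7:141262706-141266481), had 7.23, 24.5 and 41.2 CPM in the low-score and 30.4, 84.2 and 272.3 CPM in the high-score group. It exceeded every low-score library in 93 of 95 high-score libraries (log2 1.92 ± 0.07, adjusted p = 1.97e-62). Stat2 was higher by 1.23 ± 0.05 and Irf9 by 1.01 ± 0.04 on the log2 scale. Irf1, Irf5 and Irf8, which act downstream of interferon gamma or in myeloid cells, were higher by 0.64, 0.73 and 0.68. Jak2 rose by 0.37, Irf2 by 0.25, Irf3 by 0.12 and Stat3 by 0.11. The log2 difference was 0.07 ± 0.03 for Jak1 and 0.01 ± 0.04 for Tyk2.

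Sensors of nucleic acids were higher in 19 of 21 tested genes, against 13.3% of all genes, with a median log2 difference of 1.08. The cytosolic RNA sensors rose together: Dhx58 (LGP2) by 1.85 ± 0.07, Ifih1 (MDA5) by 1.51 ± 0.07 and Ddx58 (RIG-I) by 1.08 ± 0.05 on the log2 scale. Ifih1 had 14.2, 39.4 and 88.4 CPM in the low-score and 35.1, 106.4 and 385.2 CPM in the high-score group, and 69 high-score libraries exceeded the highest low-score library. Zbp1, a sensor of Z-form nucleic acid, was higher by 2.16 ± 0.11. The endosomal receptor Tlr3 was higher by 1.32, Tlr7 by 0.86 and Tlr9 by 0.87. The genes of cGAS and STING moved less: Mb21d1, which encodes cGAS, by 0.41 and Tmem173, which encodes STING, by 0.43. Ifi203, Ifi204, Ifi205, Mnda and Mndal, which lie together on chromosome 1, were higher by 1.17 to 1.65. Mavs (0.01 ± 0.03) and Ticam1 (0.05 ± 0.03), the adaptors that relay signals from the RNA sensors and from Tlr3, did not pass the test.

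Of 10 feedback inhibitors, 6 were higher and 1 lower, against 13.3% and 14.9% of all genes. Socs1, which blocks the kinases at the receptor, had 0.054, 0.436 and 3.54 CPM in the low-score and 0.361, 1.08 and 10.6 CPM in the high-score group (log2 1.44 ± 0.09, adjusted p = 8.41e-35). The ubiquitin ligase gene Trim21 was higher by 1.02, Tnfaip3 (A20), a brake on NF-kB, by 0.98, Cish by 0.68, Socs3 by 0.40 and the phosphatase gene Ptpn2 by 0.24. Nlrx1, a mitochondrial protein that dampens antiviral signalling, was lower by 0.14 ± 0.05 (adjusted p = 0.0347). With 6 cell type scores as covariates that call was lost (adjusted p = 0.221). It was also lost with an acinar score and with macrophage and T and NK scores. The same held without the libraries with Alb of 40 CPM or more. Ptpn6, Pias1 and Irf2bp1 did not pass the test and had log2 differences of 0.03 or less.

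Beyond the 15 genes above, the effector lists rose nearly as wholes. The libraries were chosen on 6 genes of this same response, so these counts describe how far the choice reached. All 28 tested antiviral effectors were called higher, with a median log2 difference of 1.504 and a range from 0.27 (Ifitm2) to 2.73 (Ifit3b). All 17 interferon-inducible GTPase entries, which attack the membranes of intracellular pathogens, were higher by at least 2-fold, with a median of 1.94. Igtp and Irgm2, overlapping genes on chromosome 11, were higher by 1.87 ± 0.07 and 1.70 ± 0.07. Igtp had 12.02, 29.3 and 49.2 CPM in the low-score and 43.3, 100.7 and 348.8 CPM in the high-score group, and 90 high-score libraries exceeded every low-score library. All 18 ubiquitin, PARP and TRIM genes were higher (median 1.13), led by Rnf213 at 1.57 ± 0.07, with medians of 265.4 and 697.9 CPM. Of 34 other interferon-induced genes, 33 were higher. Cd274, which encodes the T cell inhibitory ligand PD-L1, had 11.1, 41.6 and 77.2 CPM against 46.3, 110.4 and 494.9 CPM (log2 1.598 ± 0.07). Stxbp3 was the member not called.

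Antigen presentation through MHC class I was higher at most of its steps. Of 25 class I genes, 23 were called higher, against 13.3% of all genes, with a median log2 difference of 0.86. Tap1, a subunit of the peptide transporter (chr17:34187553-34197225), had 15.95, 34.3 and 50.9 CPM in the low-score and 42.5, 83.6 and 208.2 CPM in the high-score group, and 92 high-score libraries lay above every low-score library (log2 1.44 ± 0.06, adjusted p = 2.08e-59). The immunoproteasome subunits Psmb9 and Psmb8 were higher by 1.13 ± 0.06 and 1.09 ± 0.06. The light chain B2m had 51.2, 101.5 and 160.2 CPM against 106.2, 201.3 and 659.3 CPM (log2 1.05 ± 0.05, adjusted p = 3.15e-43). The heavy chain H2-K1 differed less, by 0.62 ± 0.06, with 98.2, 240.4 and 544.2 CPM against 198.8, 346.1 and 770.6 CPM, and 9 high-score libraries stood above the highest low-score library. No library held a whole-number count for H2-K1, so its reads were shared with related class I genes. Calr (0.04) and Pdia3 (0.01), general chaperones of the endoplasmic reticulum that also fold class I molecules, were the 2 not called.

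MHC class II genes, which belong to professional antigen-presenting cells, rose less. Of 8 genes, 7 were called higher, against 13.3% of all genes, with a median log2 difference of 0.44 and none past 2-fold. Cd74, the invariant chain, had 32.7, 61.8 and 191.3 CPM in the low-score group and a lowest value of 38.3 and a median of 83.7 CPM in the high-score group, where 3 libraries exceeded the highest low-score library (log2 0.45 ± 0.07, adjusted p = 1.50e-07). Its class II transactivator Ciita was higher by 0.47 ± 0.09. With 6 cell type scores in the fit the list's median fell to 0.24 and 6 of 8 genes were called. The count was also 6 with the title letter alone, with an acinar score, and with macrophage and T and NK scores.

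Chemokines that attract T cells and monocytes were also higher. All 10 tested chemokines were called higher, against 13.3% of all genes, with a median of 1.02 on the log2 scale. Cxcl10, a ligand of Cxcr3 on T cells (chr5:92346638-92348889), had 15.2, 57.4 and 256.9 CPM in the low-score and 110.7, 351.4 and 1084 CPM in the high-score group. In 70 of 95 high-score libraries it exceeded the highest low-score library (log2 2.46 ± 0.11, adjusted p = 7.05e-52). Cxcl9, a second ligand of the same receptor, was far scarcer, with medians of 0.431 and 1.82 CPM (log2 2.22 ± 0.17). Ccl5 was higher by 1.36 ± 0.09 and Ccl2 by 1.04 ± 0.11. All 14 NF-kB targets were higher, with a median of 0.58 and a maximum of 0.99 for Tnf, whose median went from 1.87 to 3.93 CPM. Icam1, an adhesion molecule for leukocytes, was higher by 0.81 ± 0.07.

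**Figure D4:**
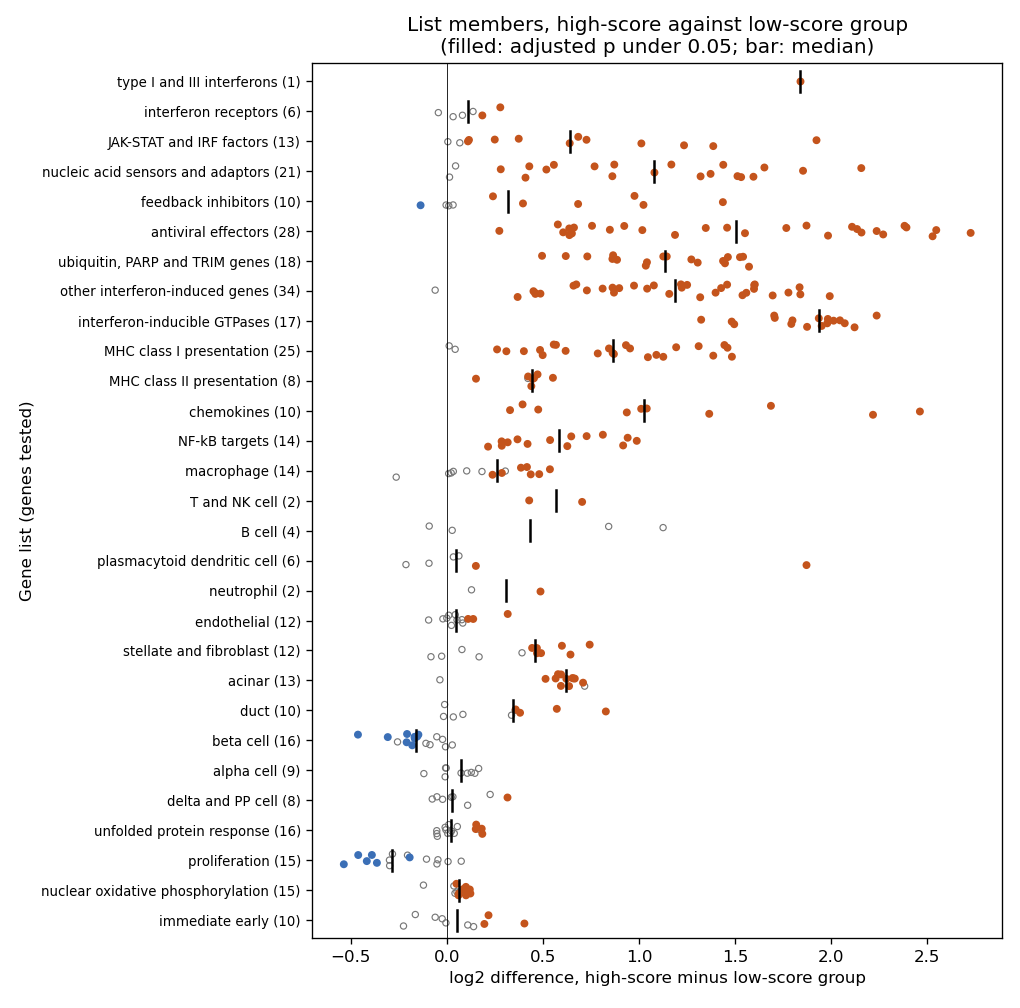
Log2 difference between the high-score and the low-score group for every tested member of the gene lists, with filled points called at an adjusted p under 0.05 and a bar at the list median. The pathway lists lie to the right, the markers of alpha and delta cells lie around 0, and beta cell and proliferation lists lie to the left.

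Markers of immune cells moved with the score to a smaller degree. In bulk RNA, fewer cells of a type and less RNA per cell cannot be told apart. Of 14 macrophage markers, 7 were called higher, against 13.3% of all genes, with a median log2 difference of 0.26. Their summed level was 43.0 to 116.6 CPM in the low-score group (median 74.0) and 49.2 to 198.2 CPM in the high-score group (median 79.9). The complement genes C1qb (0.48 ± 0.08) and C1qc (0.42 ± 0.09) and the mannose receptor Mrc1 (0.54) were higher, whereas Csf1r (0.02), Cd68 (0.10) and Itgam (0.03) did not pass the test. The lowest log2 difference of a macrophage marker was -0.26. In the deposited values 7 macrophage markers were called higher and 1 lower, and with an acinar score as covariate 6 higher and 1 lower. Of 15 T and NK cell markers, 11 are in the table and 2 were abundant enough to test. Lck, a T cell kinase, was higher by 0.70 ± 0.07 and Trac, the T cell receptor alpha constant region, by 0.43 ± 0.16, at medians of 0.145 and 0.194 CPM. The Trac call was lost in the deposited values, fitted without the number band (adjusted p = 0.117), and with an acinar score as covariate (adjusted p = 0.0579). With the macrophage and T and NK scores Trac had a log2 difference of -0.21. The summed T and NK level ran from 1.87 to 7.90 CPM (median 3.90) in the low-score and from 2.74 to 25.6 CPM (median 6.35) in the high-score group. None of 4 tested B cell markers was called, with a median log2 difference of 0.43. With the title letter alone as covariate 2 were called higher, and in the deposited values 1. Ighm reached 114.7 CPM in a low-score library and more in 1 high-score library, against medians of 0.350 and 0.433 CPM. Of 6 tested plasmacytoid dendritic cell markers, 2 were called, and 1 of these, Bst2, is itself an antiviral effector, while Siglech (0.03) was not. Neutrophil markers gave 1 call of 2. None of the markers in these lists that are in the table was at 0 in most libraries of both groups.

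With the macrophage and the T and NK scores as covariates, 10.4% of all genes were called higher and 10.8% lower. In that fit 28 of 28 antiviral effectors, 17 of 17 GTPase entries and 23 of 25 class I genes were called higher. Fewer genes were called in the lists of other cells: acinar genes went from 11 to 1 of 13 (median 0.54), stellate and fibroblast genes from 7 to 0 of 12 (median 0.10), and beta cell genes from 9 to 4 lower of 16. Of 14 macrophage markers, from which a score was built, 3 were higher and 2 lower.

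Genes of the exocrine pancreas differed between the groups. Of 13 tested acinar genes, which encode digestive enzymes of the surrounding pancreas, 11 were called higher, against 13.3% of all genes. Their median log2 difference was 0.62. Their summed level ran from 268.5 to 37890 CPM in the low-score group (median 2599) and from 168.8 to 68110 CPM in the high-score group (median 4545), so the ranges overlapped almost fully. Pnlip, pancreatic lipase, ran from 19.7 to 5132 CPM in the low-score and from 8.36 to 8757 CPM in the high-score group, with 69 high-score libraries above the low-score median (log2 0.67 ± 0.24, adjusted p = 0.0235). Pnlip differed by 0.16 in F and 1.18 in M libraries alone. The difference between letters did not pass the interaction test for this gene. In band 4 alone Pnlip, Cela3b and Ctrb1 had log2 differences of -0.063, -0.030 and -0.055. With an acinar score as covariate, a fit chosen after seeing these values, 11.6% of all genes were called higher and 12.8% lower, and 28 of 28 antiviral effectors were among the higher ones. No acinar gene was called, which a score built from these genes brings about by itself.

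Stellate and fibroblast genes were higher in 7 of 12 (median 0.46), with a summed level of 122.2 to 647.2 CPM in the low-score and 114.7 to 1778 CPM in the high-score group (medians 209.3 and 226.4). The collagen gene Col1a1 reached 106.7 CPM in a high-score library, against a median of 1.46 CPM, and 49 of 95 high-score libraries lay above the low-score median. Duct genes were higher in 4 of 10, including Muc1 (0.57 ± 0.09) and Spp1 (0.83 ± 0.16). Endothelial genes were higher in 3 of 12, with a median of 0.05, among them Robo4 at 0.32 ± 0.05, against 13.3% of all genes called higher. A further fit had scores for macrophages, T and NK cells, endothelium, stellate cells, acinar cells and duct added as 6 covariates.

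In that fit 1600 genes were higher (8.95%) and 1432 lower (8.01%). Of the genes called without the scores, 1500 higher and 1348 lower ones were called in the same direction. The antiviral median went from 1.504 to 1.43 and the class I median from 0.86 to 0.78. The acinar median went from 0.62 to 0.03, with 0 of 13 genes called, and the stellate median from 0.46 to -0.01, with 1 of 12 called higher. Duct genes had 1 call of 10 (median 0.022), with the Spp1 call lost (adjusted p = 0.218), and endothelial genes 1 of 12 (median -0.0047). Genes used to build a score are bound to lose their difference in this fit.

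**Figure D5:**
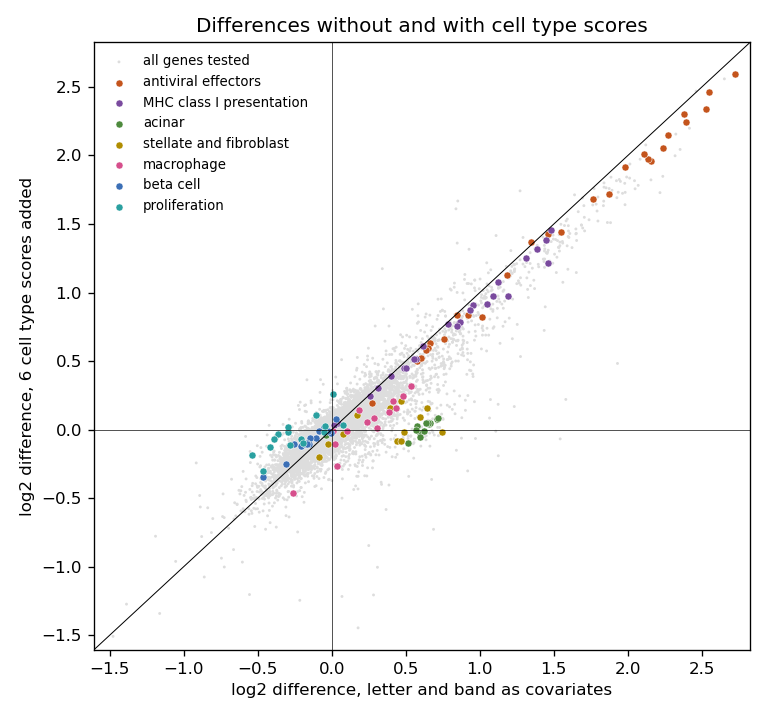
Log2 difference between the high-score and the low-score groups without (horizontal axis) and with (vertical axis) 6 cell type scores as covariates, for all genes (grey) and 7 lists in colour, with the diagonal of equality. Antiviral and class I genes stay close to the diagonal, while the acinar median goes from 0.62 to 0.03 and the stellate median from 0.46 to -0.01.

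Beta cell identity genes were slightly lower in the high-score group, whereas insulin itself hardly differed. Of 16 beta cell genes, 9 were called lower, against 14.9% of all genes, and none higher, with a median log2 difference of -0.16. Slc2a2, the glucose transporter of mouse beta cells (chr3:28697903-28731359), had 63.5, 279.4 and 637.6 CPM in the low-score and 75.1, 203.4 and 502.2 CPM in the high-score group. In 81 of 95 high-score libraries it was below the low-score median, a 1.38-fold lower level (log2 -0.46 ± 0.07, adjusted p = 2.83e-08), although the ranges overlapped. Nkx6-1, a transcription factor of mature beta cells, had 70.8, 111.8 and 433.1 CPM against 37.01, 91.8 and 361.5 CPM (log2 -0.31 ± 0.05, adjusted p = 1.31e-08). G6pc2, a brake on glucose sensing, was lower by 0.21 ± 0.06 and the transcription factor gene Pdx1 by 0.18 ± 0.05, with Pdx1 at 0.01 in band 2 alone. Of the 2 insulin genes, Ins1 was lower by 0.17 ± 0.06 (adjusted p = 0.0177), and Ins2 did not pass the test (-0.05 ± 0.05). Median Ins2 was 94950 CPM in the low-score and 91240 CPM in the high-score group. The reads of Ins1 and Ins2 were divided between these similar genes. Iapp, amylin, had a log2 difference of 0.03 ± 0.04. With the 6 cell type scores, 2 beta cell genes, Slc2a2 (-0.35) and Nkx6-1 (-0.25), were called, and Ins1 was not (adjusted p = 0.279).

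Other endocrine cells showed little. None of 9 alpha cell genes was called, and Gcg, glucagon, had a log2 difference of 0.13 ± 0.10 with 1161, 15820 and 52190 CPM in the low-score and 1688, 17660 and 69200 CPM in the high-score group. Of 8 delta and PP cell genes, Pyy alone was called higher (0.31 ± 0.11, adjusted p = 0.0188), against 13.3% of all genes. Sst had a difference of 0.11 ± 0.11. The Pyy call was lost with the 6 cell type scores (adjusted p = 0.111).

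The largest decreases were smaller than the increases. By the same rule as above, 12 genes were named. Tph1, which makes the precursor of serotonin, had the largest decrease (log2 -1.05 ± 0.33, adjusted p = 0.0101). Its values were 0, 0.561 and 31.5 CPM in the low-score and 0, 0.336 and 9.90 CPM in the high-score group, so both groups held libraries without a count and the highest value lay in the low-score group. The Tph1 difference was -1.78 in F and -0.35 in M libraries alone and was not called with the 6 cell type scores (adjusted p = 0.0539). Bach2, a transcriptional repressor, had 1.14, 5.23 and 20.4 CPM against 0.756, 3.54 and 15.3 CPM (log2 -0.60 ± 0.12, adjusted p = 1.44e-05). Nptx1, a secreted pentraxin of neurons, went from a median of 54.5 to 37.6 CPM, and 75 of 95 high-score libraries were below the low-score median (log2 -0.56 ± 0.10, adjusted p = 4.09e-06). Doc2b, a calcium sensor of insulin granule exocytosis, was lower by 0.54 ± 0.13. The others were Zfp125, Col27a1, Ank1, Rit2, Mfi2, Vwa5b1, Klhdc8a and Ildr2, with log2 differences between -0.60 and -0.47. The median of Ildr2 was 2.36 CPM in both groups, and its highest values were 21.3 CPM in the low-score and 11.5 CPM in the high-score group. With the 6 cell type scores, 11 of the 12 were called.

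Cell division genes were lower in 6 of 15, against 14.9% of all genes, among them Cenpf (-0.54 ± 0.15) and Cdk1 (-0.42 ± 0.14). Their summed level did not fall, with medians of 93.0 CPM in the low-score and 93.7 CPM in the high-score group. In the deposited values 2 were called lower, with the acinar score also 2, and with the 6 cell type scores none. Of 16 genes of the endoplasmic reticulum stress response 4 were called higher, against 13.3% of all genes. With the macrophage and T and NK scores 2 were called higher, and with the 6 cell type scores 5. Among the 4 was Hspa5, the chaperone BiP, higher by 0.18 ± 0.04, while Ddit3 (0.01) and Atf4 (0.02) did not pass the test. Of 15 nuclear genes of oxidative phosphorylation, 9 were higher, by 0.12 or less. Immediate early genes gave 3 calls of 10, with Junb at 0.40 ± 0.10, and 1 higher and 1 lower with the 6 cell type scores. With the title letter alone as covariate 1 was called, and the Junb call was lost (adjusted p = 0.496).

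The 2 middle groups were in neither end group, and the score was used there as a number. Over these libraries, 1.64% of 17879 genes rose with the score and 0.666% fell. Of the 584 genes at least 1.5-fold higher in the high-score group, 33.4% were called in the same direction. Antiviral effectors were called in 22 of 28, GTPase entries in 12 of 17 and class I genes in 17 of 25. Irf7 rose by 0.74 on the log2 scale per unit of score. NF-kB targets, class II genes, acinar genes and macrophage markers gave no call there, and 14 of the 15 named higher genes but none of the 12 named lower genes were called. Ifnb1 was not tested in the middle groups.

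The difference between the end groups was set against the title letter with an interaction term. Of 17880 genes, 5 had a difference that differed between M and F (0.028%), and none of them is a gene of the pathway lists. These calls were Pzp, Apoa1, Alb, Trf and Gm14648. Without the 4 libraries of these groups with Alb of 40 CPM or more, a setting chosen after seeing the data, 2 genes were called, of which Gm14648 is the one shared with these 5. Both limma fits called 0 genes (limma-voom with 716 and limma on the deposited values with 738 at an unadjusted p under 0.05). Irf7 differed by 1.80 between the groups in F and 2.02 in M libraries alone.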

How the data were processed

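Poly(A)-selected RNA from pancreatic islets was sequenced, with ERCC control RNA added before library construction, per the labels' protocols. The authors deposited expected counts per gene, estimated counts that are not scaled between libraries (67.7% of values are exactly whole, with a tolerance of 0). The second deposited table holds variance-stabilised values on a log2 scale, and the deposited gene table gives positions. The submitters' processing notes name the build GRCm38 and the package DESeq2. The aligner was not given in the sources used here, nor was the counter. Library totals lay between 15.1 M and 68.8 M counts with a median of 34.8 M, and counting error is largest for genes of a few counts.

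The score was computed from the deposited log2 values. Counts were rounded and fitted with edgeR 4.0.16 (R 4.3.3) on the 190 libraries of the high-score and the low-score group: TMM factors, filterByExpr by score group and title letter (17880 genes left), quasi-likelihood F test, title letter and number band as covariates, Benjamini-Hochberg adjustment over all genes, threshold 0.05. Standard errors are the absolute log2 difference over the square root of F. CPM are counts divided by the library's total and multiplied by a constant. The score genes stayed in the fit and were left out of all counts. The interaction used the same libraries. List scores are the mean log2 CPM of members with a mean of at least 0.1 CPM, with 0.5 added to each count before scaling. The fit was tried on simulated counts of independent genes. That trial does not cover groups chosen on genes that vary together with those tested.

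Named genes are the 15 largest increases and 12 largest decreases with a mean of at least 2 CPM, the same sign in every band and letter and no placeholder symbol, up to 4 genes per list by adjusted p, all members of the interferon, receptor, factor, sensor and inhibitor lists, preset genes, and 5 genes in each direction of the interaction. Some members that this rule names are not reported here. Any further gene named was picked with its values in view. The members and the 30 lists were chosen with earlier results of these data known. Alternatives comprised DESeq2 1.42.0, limma 3.58.1 (voom, and on the deposited values), other size factors, filters, covariates, score definitions and thresholds, and each band or letter alone. The fits on the deposited values, including the interaction, had the title letter but not the number band as covariate. Promoters are from RefSeq (GRCm38.p6) and were matched by symbol. Figures were drawn with Matplotlib 3.10.9.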

Additional observations from a re-analysis of the deposited data

Results flagged for a closer look

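The difference between the high-score and the low-score group for 5 genes differed between the title letters by the interaction test, as M minus F on the log2 scale: Pzp by 3.10 (adjusted p = 8.77e-05), Apoa1 by 3.27 (adjusted p = 8.77e-05), Gm14648 by 5.13 (adjusted p = 0.00814), Alb by 3.67 (adjusted p = 0.00814) and Trf by 1.62 (adjusted p = 0.0260). Pzp, Apoa1, Alb and Trf encode plasma proteins made by the liver. Their medians were low in both groups, with Alb at 0.641 CPM in the low-score and 0.609 CPM in the high-score group, while single libraries reached 175.1 and 146.7 CPM. Of 6 libraries with Alb of 40 CPM or more, 2 were in the high-score and 2 in the low-score group. Without these libraries, a setting chosen after seeing the data, the differences were 0.11 for Pzp, -0.05 for Apoa1, -0.67 for Alb and -0.07 for Trf, and 2 genes were called, Gm14648 and Gm10045. Gm14648 had medians of 0.071 and 0.120 CPM and single libraries at 94.9 and 82.7 CPM, and no library held an exactly whole count for it.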

How the results depend on the processing

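Over 26 alternative settings, 170 named genes gave 4391 values, of which 3796 kept their direction and side of the threshold, 546 lost their call, 28 gained one and 21 changed sign. In percent of the genes tested in each fit, against 13.3% higher and 14.9% lower, number bands 1 to 4 alone, which hold fewer libraries, gave 5.19%, 4.63%, 3.38% and 3.85% higher and 2%, 3.02%, 0.52% and 0.72% lower. F libraries alone gave 7.89% and 5.65%, and M libraries alone 8.58% and 6.62%. The score as a number over the middle groups gave 1.64% and 0.666%, and a test against a 1.2-fold minimum 3.51% and 0.0727%. With 6 cell type scores 8.01% were lower. The interaction, with 5 genes, gave 9 with the title letter only, 3 at a mean of at least 1 CPM, 26 with the third of libraries at each end, 2 without the libraries with Alb of 40 CPM or more, and 0 with limma-voom and 0 with limma on the deposited values (716 and 738 genes at an unadjusted p under 0.05, against 794 with edgeR). The cause of these changes was not tested. Sign changes, all at an adjusted p over 0.05, were as follows. In the middle groups: Rit2 0.31, Ildr2 0.41, Irf3 -0.087, Tcf4 -0.033, Pecam1 -0.0047, Junb -0.23, Ier2 -0.20 and Egr2 -0.075. With 6 cell type scores: Trac -0.13, Col1a1 -0.015, Col1a2 -0.080, Ctrb1 -0.0088, Sox9 -0.11 and Egr2 -0.046. With the macrophage and T and NK scores: Trac -0.21. With the acinar score, chosen after seeing the data: Ctrb1 -0.0024. In band 2: Col1a2 -0.11 and Pdx1 0.0070. In band 4: Cela3b -0.030, Pnlip -0.063 and Ctrb1 -0.055. No paired analysis was possible because every mouse number belongs to a single library. Genes with a few counts per library, such as Ifnb1, are limited by depth.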

Other observations

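Of the genes at least 2-fold higher in the high-score group, 60.9% lay outside the 14 pathway lists, and the following were picked from these after their values were seen. Tnfsf10, which encodes the death ligand TRAIL, was higher by 1.39 ± 0.07 on the log2 scale at a mean of 102.4 CPM, and Mlkl, the executioner of necroptosis, by 1.40 ± 0.07. Casp1, the inflammasome protease, was higher by 1.19 ± 0.09. The complement genes Cfb and C1ra were higher by 1.65 ± 0.12 and 1.12 ± 0.09, and Nos2, inducible nitric oxide synthase, by 1.98 ± 0.19. Il15, a growth factor of NK and memory T cells, was higher by 1.46 ± 0.10 and Cd40 by 1.02 ± 0.07. With 6 cell type scores as covariates these genes kept differences of 1.34 (Tnfsf10), 1.21 (Mlkl), 0.98 (Casp1), 1.38 (Cfb), 0.82 (C1ra), 1.64 (Nos2), 1.31 (Il15) and 0.89 (Cd40). In the same fit 3 genes picked in the same way lost more of their difference: Reg2 went from 1.93 to 0.48, Reg3b from 1.11 to -0.01 and Reg3d from 1.07 to 0.08.

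A second group stood together on the genome. Between 3.05 and 7.99 megabases of chromosome 14, 54 genes were tested, 50 of them named Gm and a number. Of these 54 genes, 39 were higher and 1 lower in the high-score group, against 13.3% and 14.9% of all genes. At least 2-fold higher were 22, against 1.43% of all genes, and the median log2 difference was 0.95. The median was 1.02 with 6 cell type scores and 0.43 in the deposited values, and 1 of the genes was called in the 2 middle groups. The typical gene of this stretch had a whole-number count in 0% of libraries, so its reads were divided among similar genes and its members are not independent measurements. Mean levels of the 54 genes ran from 0.18 to 735.6 CPM. Members as scarce as the lowest can pass the filter for low counts through 1 group alone, which was not tested. The window was chosen after its values were seen.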
